A study of Mus musculus with 8 samples.

Results

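The genes described here are 9 factors of olfactory neurogenesis: the basic helix-loop-helix (bHLH) transcription factors Neurog1, Neurod1 and Neurod2, the zinc finger factor Insm1, the Hes family member Hes6, the HMG-box factors Sox2 and Sox11, and the receptors Kit and Lgr5. They were taken by symbol from the deposited polysome table, where all 9 have a row among 21765 genes. After a filter on low values (a mean of at least 1 TPM, a transcript abundance normalized for length and depth), 8 of the 9 remained among 16097 tested genes. The one left out was Neurod2. The genes were listed by name, with no threshold on a measured value.

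The tissue was the main olfactory epithelium of mice, which lines part of the nose and holds the olfactory sensory neurons, and the RNA sequenced was that bound to polysomes. Tissue was put in 100 µg/mL cycloheximide, which stalls ribosomes on the mRNA, and lysates were spun through sucrose gradients of about 42 fractions of 350 µL. Fractions 27 to 34 were pooled as early (lighter) polysomes and 35 to 42 as late (heavier) polysomes, at 50 µL per fraction. The wild-type (WT) groups carried Mex3a flox/flox or Mex3a flox/+ with no Cre, and the conditional knockout (cKO) groups carried Mex3a flox/flox with Cre, so floxed Mex3a alleles were present in all 4 groups. The 4 groups are the early and the late polysomes of each genotype, with 2 libraries in each, and the library names place the early and the late library of a number in the same lysate, which makes 4 lysates. Ages, sexes and the number of animals per lysate are not given in the labels. The series' design text speaks of sorted cells with HyperTRIBE transgenes, which the labels of these polysome libraries do not mention.

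The olfactory epithelium makes neurons throughout life from globose basal cells, which divide above a layer of quiescent horizontal basal cells. Sox2 marks the stem and basal compartment, Neurog1 defines a committed progenitor state, and Neurod1 and Insm1 accompany the last divisions before a cell becomes an immature neuron. Kit and Lgr5 are surface receptors of globose basal cells, and Notch signalling through Hes factors holds the proneural genes in check. An mRNA that carries many ribosomes sediments with the late polysomes, and a longer coding sequence has room for more ribosomes. Levels are relative within each pool. The ratio of late to early level therefore places a transcript against the other genes and is no absolute measure of its ribosome load.

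The start of translation of each mRNA is shown first, since the data concern ribosome loading. The windows are 11 bases before the start codon, the start codon itself in capitals, and 9 bases after it, from GENCODE M21 transcripts on GRCm38, read 5′ to 3′ on the coding strand.
Neurog1: cacactgcaagATGcctgcccct
Neurod1: gaagtggaaacATGaccaaatca
Neurod2: tctgaggcaccATGctgacccgc
Insm1: accgcgccaacATGccccgcggg
Hes6: ctccgtagaccATGgctccgtcc
Sox2: ccagcgcccgcATGtataacatg
Sox11: cgccgcggaccATGgtgcagcag
Kit: cagccaccgcgATGagaggcgct
Lgr5: tctcgggcaccATGgacacctcc

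A purine stood 3 bases before the start codon in 8 of the 9 genes, all but Sox2, and in 84.6% of 20506 annotated genes. A G directly after the start codon was present in Hes6, Sox11 and Lgr5, 3 of 9 against 49.6% of genes, and these 3 also had the purine, a combination found in 41.5% of genes. Another ATG lay upstream in the 5′ leader of 4 of the genes (Neurod1, Neurod2, Insm1 and Lgr5), against 51.9% of 21535 genes. The coding sequences ranged from 672 bases in Hes6 and 732 in Neurog1 to 2721 in Lgr5 and 2937 in Kit, around a median of 1173 over all genes. Sox11 had the longest 3′ UTR of the 9, with 6957 bases against a median of 782.

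On GRCm38 Neurog1 is at chr13:56250478-56252163 (minus strand, 1 exon), Neurod1 at chr2:79452521-79456751 (minus, 2 exons) and Neurod2 at chr11:98325415-98329648 (minus, 2 exons). Insm1 is at chr2:146221921-146225020 (plus, 1 exon), Hes6 at chr1:91411483-91414038 (minus, 4 exons) and Sox2 at chr3:34650405-34652461 (plus, 1 exon). Sox11 is at chr12:27334264-27342574 (minus, 1 exon), Kit at chr5:75574916-75656722 (plus, 21 exons) and Lgr5 at chr10:115450311-115587780 (minus, 18 exons). In this annotation Neurod1 shares 201 exonic bases with Cerkl on its own strand (7.22 to 12.2 TPM over the 8 libraries) and 154 with the antisense Gm26755. Reads in those bases cannot be assigned without the authors' counting rule.

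Before the members, the targeted gene and the libraries were checked. Mex3a, an RNA-binding protein gene, was at 97.4 and 116 TPM (WT early), 93.2 and 95.6 (WT late), 13.9 and 19.8 (cKO early) and 11.1 and 13.8 (cKO late) (replicate 1, then replicate 2, as in all such lists here). The cKO mean was 16.5% of the WT mean in early and 13.5% in late polysomes. The title of WT early replicate 2 conflicts with its genotype tag, which is that of the cKO, and its Mex3a level was the highest of all. The depth inferred from steps in the TPM values was 7776792 to 12771079 reads per library, lowest in cKO late replicate 2, and the scale factors ran from 0.940 to 1.07. The tissue's defining markers were present: a summed 7524 to 13199 TPM of 12 mature neuron genes (highest Omp), 4504 to 5241 of 12 immature neuron genes, 7468 to 13492 of 10 sustentacular genes and 398 to 807 of 10 horizontal basal genes, all scaled. Most of the horizontal basal sum was 1 gene, Igfbp5, with a mean of 471 scaled TPM.

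The 9 genes covered a wide range of levels. Averaged over the 8 libraries, Sox11 was highest with 276 scaled TPM, followed by Insm1 with 213, Hes6 with 206, Sox2 with 101, Neurod1 with 82.7, Neurog1 with 33.2, Kit with 24.3, Lgr5 with 4.25 and Neurod2 with 0.221. Within a group most neighbours in this order were apart in every library. The exceptions were Sox11 and Hes6, whose libraries overlapped in both early groups, Neurog1 and Kit in WT late, and Sox11 and Insm1 in cKO late polysomes. Hes6 was second in WT early and first in cKO early polysomes, and behind Sox11 and Insm1 in both late groups. The bulk tissue holds all these cell types together, so fewer cells of a type and less RNA per cell cannot be told apart in any level given here.

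**Figure D1:**
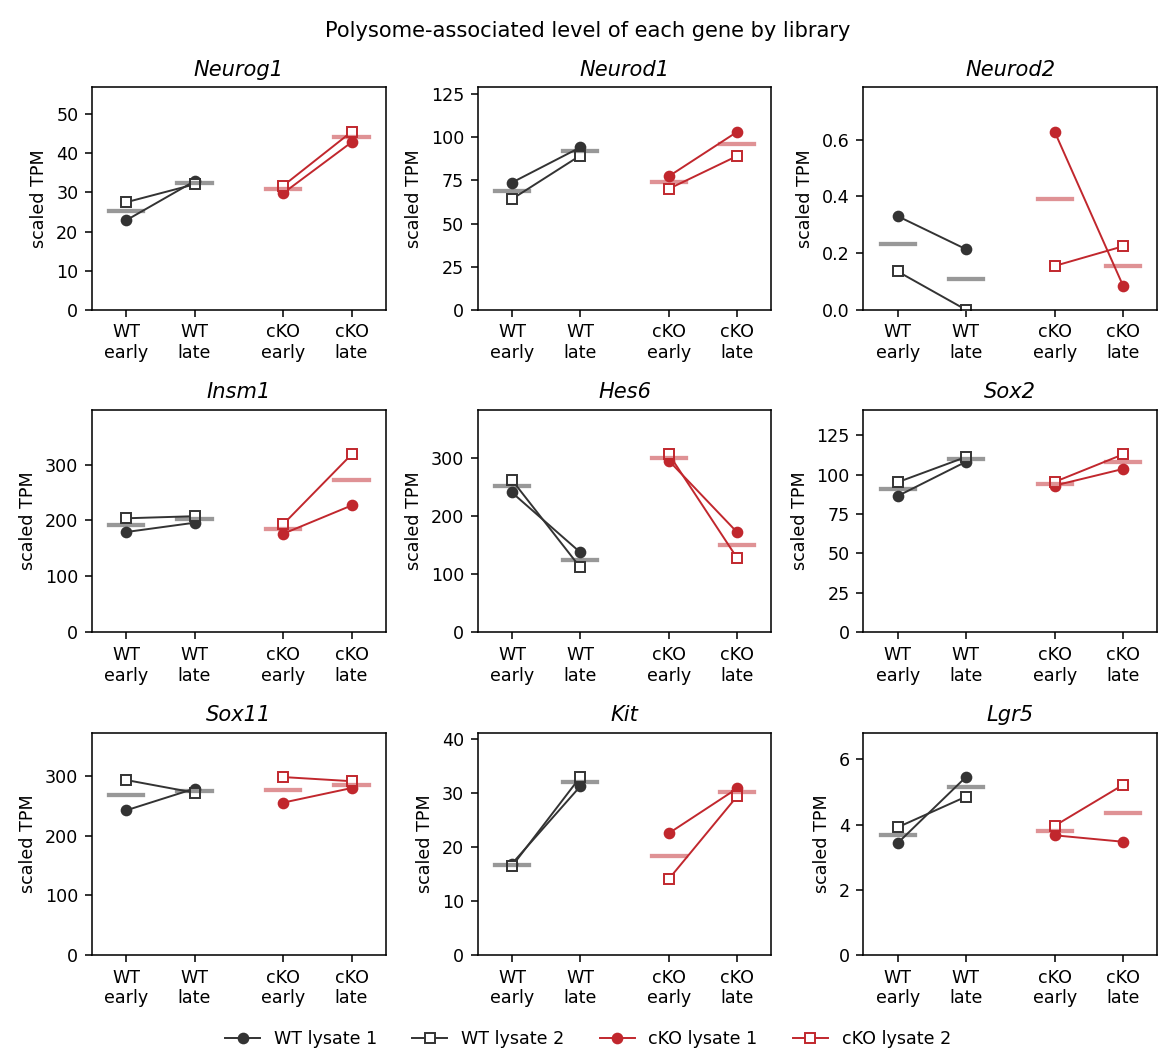
Scaled TPM (vertical axes, each from 0) of the 9 genes in the 4 groups (horizontal axes), with a point for each library, a line joining the early and late library of a lysate, and a bar at each group mean. Hes6 falls from early to late in all 4 lysates while Neurog1, Neurod1, Sox2 and Kit rise, and the red cKO points of Neurog1 lie above the WT points in both fractions.

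Late was compared with early polysomes to ask how each mRNA was distributed between heavy and light polysomes. Hes6 fell by 1.01 on the log2 scale, to 0.495 times its early level, and 5 genes rose: Kit, Neurog1, Neurod1, Insm1 and Sox2, by between 0.23 and 0.81. Sox11 and Lgr5 did not pass the test. Thus 6 of the 8 tested genes were called, 5 higher and 1 lower, beside 68.9% of all tested genes (34.3% higher and 34.6% lower), so the share called was near the background. All tests are limma on log2(scaled TPM + 1), two-sided, with Benjamini-Hochberg adjustment over all 16097 genes and a threshold of 0.05. The median change of the 8 genes was 0.29, against -0.01 over all tested genes. Scaling by median ratios holds the middle of all genes near 0, so a rise or fall is relative to the median gene of each pool. Without scaling the median change of all tested genes was 0.087.

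Neurog1 encodes the bHLH factor that commits globose basal cells to the neuronal fate. It was at 22.8 and 27.0 TPM (WT early), 34.8 and 34.4 (WT late), 28.6 and 29.8 (cKO early) and 43.6 and 48.1 (cKO late), resting on 184 to 266 inferred reads each. All 4 late libraries lay above all 4 early ones. The WT lysates rose by 0.50 and 0.22 and the cKO lysates by 0.51 and 0.51 (log2). Fitted over both genotypes it was 0.43 (SE 0.081, limma adjusted p = 0.00145). In WT alone it was 0.36 (adjusted p = 0.0271) and in cKO alone 0.51 (adjusted p = 0.00542). The WT call was lost without WT early replicate 1 (0.23, adjusted p = 0.161), WT late replicate 1 (adjusted p = 0.108) or WT late replicate 2 (adjusted p = 0.0876), and when only the WT libraries were fitted (adjusted p = 0.0513).

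Neurod1 encodes a bHLH factor that acts after Neurog1 as precursors leave the cell cycle. Its level was 73.4 and 63.0 TPM (WT early), 99.7 and 95.9 (WT late), 74.4 and 66.0 (cKO early) and 105 and 94.3 (cKO late), from 634 to 1051 reads. The late libraries did not overlap the early ones. The lysates rose by 0.35, 0.47, 0.41 and 0.34 (log2, WT 1 and 2, then cKO 1 and 2), the narrowest span of the genes that rose. The fitted rise was 0.39 (SE 0.081, adjusted p = 0.00251), with 0.41 in WT (adjusted p = 0.0158) and 0.38 in cKO (adjusted p = 0.0214). Without one library the WT call was lost in 3 cases (WT early replicate 2 and either WT late library, adjusted p = 0.0530 to 0.114), and the cKO call without cKO early replicate 2 (adjusted p = 0.119) or cKO late replicate 1 (adjusted p = 0.116).

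Neurod2, a related bHLH factor best known from forebrain neurons, was close to the floor of detection. It had 24 inferred reads over all 8 libraries, between 0 and 9 in each, or 0 to 0.603 TPM. The library with 0 reads (WT late replicate 2) allows up to 3 reads, or 0.219 TPM, for counting error only. No fold or test is given for it.

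Insm1 encodes a zinc finger repressor that promotes the terminal divisions of neuronal precursors. It was at 179 and 200.2 TPM (WT early), 207 and 223 (WT late), 169 and 182 (cKO early) and 231 and 336 (cKO late). The early and late libraries overlapped, and the 336 TPM of cKO late replicate 2, the library with the fewest reads, stood above the other 7. That library holds 2738 reads of Insm1, within the range of 2411 to 2936 over all libraries. The WT lysates differed by 0.13 and 0.03, less than the 0.36 and 0.71 of the cKO lysates (log2). The fitted rise over both genotypes was 0.31 (SE 0.11, adjusted p = 0.0358), with 0.08 in WT (adjusted p = 0.705) and 0.54 in cKO (adjusted p = 0.0180). Without cKO late replicate 2 the rise over both genotypes was 0.19 (adjusted p = 0.0848) and in cKO 0.30 (adjusted p = 0.0974). The cKO call was also lost without cKO early replicate 1 (adjusted p = 0.0831) and when only the cKO libraries were fitted (adjusted p = 0.0528). Leaving out any single library other than WT early replicate 2 or cKO late replicate 1 ended the call over both genotypes (adjusted p = 0.0510 to 0.111).

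Hes6 belongs to the Hes family but opposes Hes1 and favours neuronal differentiation. It was at 239 and 257 TPM (WT early), 145 and 119.6 (WT late), 283 and 287 (cKO early) and 175 and 134 (cKO late), from 484 to 1796 reads. Each late library lay below each early library, in the direction opposite to the 5 genes that rose. The lysates fell by 0.80 and 1.22 (WT) and by 0.78 and 1.26 (cKO) on the log2 scale, in each genotype with the larger fall in lysate 2. The fitted change was -1.01 (SE 0.11, adjusted p = 7.96e-05), with -1.01 in WT (adjusted p = 0.00116) and -1.02 in cKO (adjusted p = 0.000876). The call held under each alternative that was run, with changes between -1.12 and -0.85.

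Sox2 encodes an HMG-box factor of stem cells that is also present in sustentacular cells. Its levels were 86.0 and 93.4 TPM (WT early), 114 and 119 (WT late), 89.4 and 89.6 (cKO early) and 105 and 119 (cKO late). Late and early libraries did not overlap, and the 4 lysates rose by 0.32, 0.22, 0.15 and 0.24 (log2). The fitted rise was 0.23 (SE 0.066, adjusted p = 0.0127), the lowest of the genes called. In WT it was 0.27 (adjusted p = 0.0377), and with lysate as a block adjusted p = 0.0557, with the call also lost without any 1 of the 4 WT libraries (adjusted p = 0.0550 to 0.184). In cKO it was 0.20 (adjusted p = 0.104). Of the 10 sustentacular markers 9 were called higher in late polysomes, with a sum that went from 7468 to 8969 scaled TPM in the early libraries to 11641 to 13492 in the late ones, and their part in the Sox2 result was not tested.

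Sox11 encodes a SoxC factor of newly born neurons and was at similar levels in both pools. Its levels were 241 and 288 TPM (WT early), 295 and 292 (WT late), 245 and 280.1 (cKO early) and 285 and 308 (cKO late), from 7009 to 11682 reads, the deepest of the 9 genes. The late minus early difference was positive in the lysates numbered 1 (0.20 in WT and 0.13 in cKO) and negative in those numbered 2 (-0.11 and -0.03). The fitted change was 0.05 (SE 0.088, adjusted p = 0.647). Quantile normalization turned it into a called rise of 0.31 (adjusted p = 0.00701).

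Kit encodes the receptor tyrosine kinase for stem cell factor. It was at 16.8 and 16.2 TPM (WT early), 33.1 and 35.4 (WT late), 21.7 and 13.3 (cKO early) and 31.5 and 31.1 (cKO late), from 302 to 800 reads. All late libraries lay above all early ones, and the cKO early libraries differed the most within a group. The WT lysates rose by 0.85 and 0.96 and the cKO lysates by 0.44 and 1.01 (log2). The fitted rise was 0.81 (SE 0.13, adjusted p = 0.000661), the largest of the 8 genes, with 0.91 in WT (adjusted p = 0.00409) and 0.72 in cKO (adjusted p = 0.0104). Without cKO early replicate 2 the cKO value was 0.40 (adjusted p = 0.0403).

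Mast cells also carry Kit. The 11 fixed mast cell markers summed to 101 to 114 scaled TPM in WT and 121 to 128 in cKO libraries. Most of this was Gata2 (41.2 to 90.3 TPM as deposited) and Hdc (39.4 to 74.1 TPM), which are not particular to mast cells. The other 9 stood at 0 to 2.78 TPM each and summed to 3.39 to 8.05 TPM per library, with Mrgprb2 at 0 in all libraries. The part of mast cells in the Kit level was not tested.

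Lgr5 encodes an R-spondin receptor that marks dividing globose basal cells. It was the least abundant of the tested genes, at 3.41 and 3.84 TPM (WT early), 5.77 and 5.20 (WT late), 3.53 and 3.72 (cKO early) and 3.54 and 5.51 (cKO late), from 61 to 115 reads. Late libraries were higher in 3 of 4 lysates, and the cKO late libraries, the widest pair, spanned nearly the whole range. The fitted difference of 0.26 (SE 0.15, adjusted p = 0.141) did not pass the test. It passed only without cKO late replicate 1 (0.38, adjusted p = 0.0401).

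Within genotypes, 5 of the 8 genes were called in WT (Neurog1, Neurod1, Hes6, Sox2 and Kit, beside 54.8% of all genes) and 5 in cKO (Neurog1, Neurod1, Insm1, Hes6 and Kit, beside 58.1%). Of the 8, 5 were higher in late polysomes in 4 of 4 lysates (Neurog1, Neurod1, Insm1, Sox2 and Kit) and Hes6 was lower in all 4. The same sign in all 4 lysates was seen in 76.0% of tested genes. The share of all tested genes whose late and early libraries did not overlap was not computed, so that separation is not shown to be particular to these genes. Without WT early replicate 2, whose genotype tag conflicts with its title, 6 genes were called over both genotypes and 3 in WT. Between genotypes the shift itself differed for none of the 8 by the interaction of genotype and fraction (limma, 0 called at the adjusted threshold and 0 at an unadjusted p under 0.05, beside 0.00621% of all genes called). Voom on the inferred reads also called 0, with 1 at an unadjusted p under 0.05, Insm1. The limma interaction value of Insm1 was 0.46 (SE 0.22, adjusted p = 1.00).

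**Figure D2:**
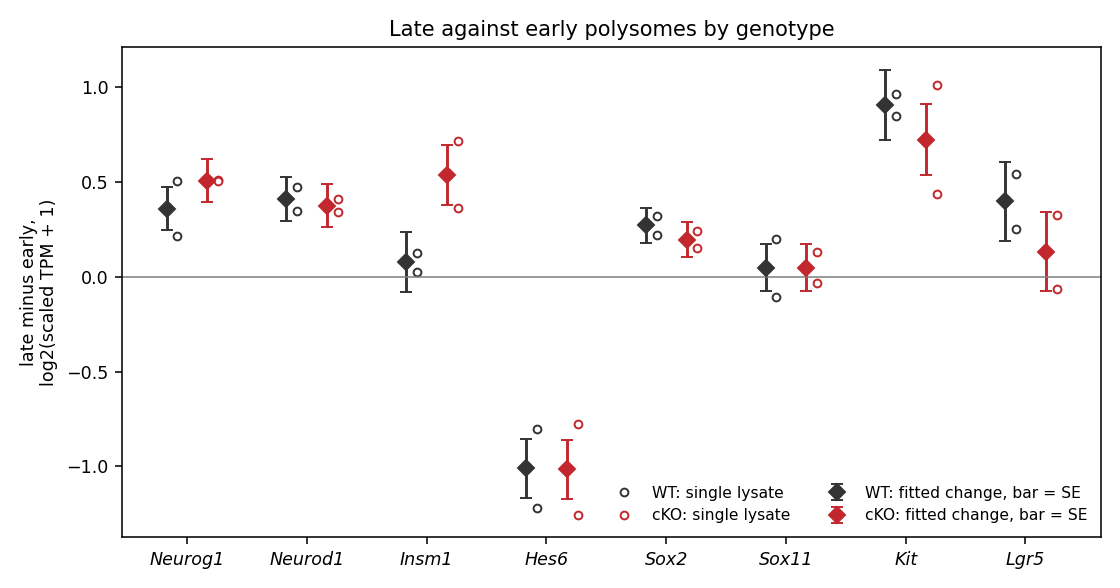
Late minus early difference in log2(scaled TPM + 1) (vertical axis) for the 8 tested genes (horizontal axis) in WT (dark) and cKO (red), with the fitted change and its standard error as diamonds and bars and the single lysates as open circles. Hes6 lies near -1 in both genotypes, Kit is the highest, and Insm1 is the gene whose WT and cKO values are furthest apart.

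Coding length was set beside these shifts. The tested genes with a coding length (14647, or 91.0%) were split into 10 equal classes, whose median late minus early change rose from -1.12 in the shortest to 0.50 in the longest. Neurog1 (732 bases) and Hes6 (672 bases) fall in the same class, the second, where the median was -0.63 and the 10th to 90th percentiles were -1.11 and 0.16. Neurog1 at 0.43 lay above 95.2% of that class, and Hes6 at -1.01 above 15.9% of it. The gap between the pair was 1.30 and 1.44 for the WT lysates, 1.28 and 1.76 for the cKO lysates (mean 1.45 ± 0.22 on the log2 scale, SD over 4 lysates). Neurod1 and Sox2, both in the fourth class (median -0.16), lay above 82.3% and 74.7% of it. Kit and Lgr5, in the ninth class (median 0.45), lay above 80.7% and 34.4% of it, while Insm1 (57.4%) and Sox11 (53.1%) were near the middle of theirs. These are positions within a distribution, with no test.

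**Figure D3:**
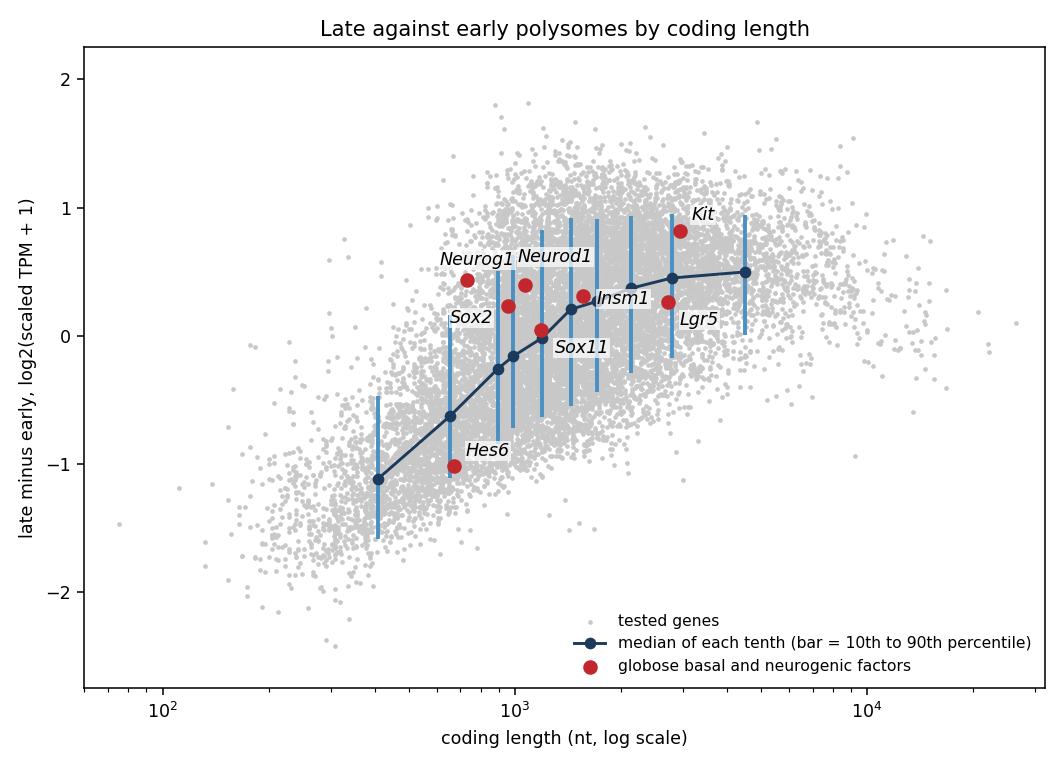
Late minus early change in log2(scaled TPM + 1), mean of genotypes (vertical axis), against coding length in bases (horizontal log axis) for 14647 tested genes (grey), with the median of each length class (dark line), its 10th to 90th percentiles (blue bars) and the 8 tested neurogenic genes (red). Neurog1 and Hes6, of similar length, lie above and below the middle of their class.

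The conditional knockout was compared with WT in each fraction to ask whether loss of Mex3a changed the level of these mRNAs on polysomes. Neurog1 was the gene whose libraries separated in both fractions, 22.2% higher in cKO than WT early and 36.0% higher in cKO than WT late polysomes, but none of the 8 genes was called in any genotype comparison. In early polysomes 0 were called (beside 0.0435% of all genes) and 1 had an unadjusted p under 0.05, Neurog1 (beside 6.65%). In late polysomes 0 were called (beside 0.0124%) and 2 had an unadjusted p under 0.05, Neurog1 and Insm1 (beside 9.36%). On the means of each lysate's 2 libraries 0 were called (beside 0.00621%) and 2 had an unadjusted p under 0.05, Neurog1 and Hes6 (beside 11.3%). These are limma's counts. Voom also called 0 in each of the 3, with 0, 2 and 2 at an unadjusted p under 0.05. The lysate is the unit on which genotypes differ, with 2 lysates per genotype.

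In early polysomes Neurog1 averaged 25.2 ± 3.26 scaled TPM in WT against 30.8 ± 1.34 in cKO, and in late polysomes 32.5 ± 0.564 against 44.2 ± 1.90 (SD, n = 2 libraries). Both cKO libraries lay above both WT libraries in each fraction, which held for none of the other 7 tested genes and for 6.57% of all tested genes. The log2 difference was 0.28 in early (SE 0.11, limma adjusted p = 0.725), 0.43 in late (SE 0.11, adjusted p = 0.364) and 0.36 on lysate means (SE 0.082, adjusted p = 0.357, unadjusted p = 0.00487). The early difference was 0.16 without WT early replicate 1 and 0.41 without WT early replicate 2, the library with the conflicting tag.

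For Hes6 the early means were 251 ± 15.2 scaled TPM in WT against 299.96 ± 7.77 in cKO, and the late means 125 ± 18.3 against 149 ± 31.3 (SD, n = 2 libraries). The cKO libraries lay above the WT ones in early polysomes and overlapped them in late polysomes. In late polysomes the cKO libraries of Insm1 and Sox11 lay above the WT ones, and those of Kit below. The share of all tested genes that separate in a single fraction was not computed. The difference was 0.26 in early (adjusted p = 0.826), 0.25 in late (adjusted p = 0.643) and 0.26 on lysate means (SE 0.087, adjusted p = 0.402). Leaving out single late libraries moved the late value between 0.04 (without cKO late replicate 1) and 0.47 (without cKO late replicate 2).

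Insm1 differed by fraction, with -0.05 in early (adjusted p = 0.971), 0.41 in late (SE 0.16, adjusted p = 0.486) and 0.18 on lysate means (adjusted p = 0.590). The late mean of WT was 202 ± 8.23 scaled TPM and that of cKO 272 ± 64.5 (SD, n = 2 libraries). The late value was 0.17 without cKO late replicate 2 and 0.65 without cKO late replicate 1.

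The other 5 tested genes stayed within 0.10 of WT on lysate means: Neurod1 at 0.08 (adjusted p = 0.760), Sox11 at 0.05 (adjusted p = 0.844), Sox2 at 0.02 (adjusted p = 0.944), Kit at 0.00433 (adjusted p = 0.993) and Lgr5 at -0.09 (adjusted p = 0.856). Their standard errors were 0.070 to 0.16, so shifts of that size cannot be told from none at this number of lysates. Over the 8 genes the median lysate-mean difference was 0.07, with 7 of 8 positive, against 0.00147 and 50.4% positive over all tested genes. The scaling holds these all-gene values near the middle. The sign differed from the main fit in 4 alternative settings for Kit, 3 for Sox2, 2 for Sox11 and 1 each for Neurod1 and Lgr5. A shared rise of the 8 genes was not tested. The 12 immature neuron markers, which follow these factors in the lineage, summed to 4886 to 5241 scaled TPM in WT and 4504 to 5140 in cKO libraries, with a median lysate-mean difference of -0.18 and 0 called by limma. At an unadjusted p under 0.05 there were 3 of 12 (beside 11.3% of all genes), Dcx and Crmp1 with a negative difference (-0.40 and -0.18) and Stmn4 with a positive one (0.36). Their part in the differences of Neurog1 and Hes6 was not tested. The 11 olfactory bulb markers in the table summed to 167 to 211 scaled TPM in WT and 163 to 184 in cKO libraries, with none at 0 throughout. Most of this was Cdhr1, with a mean of 106. Slc17a7 was at 9.96 and 7.80 TPM in WT lysate 1 (early, late) against 1.77 to 4.13 elsewhere, and Gad1 at 4.09 and 5.34 against 0.564 to 2.79. On lysate means Slc17a7 (-0.83) and Gad1 (-0.69) were negative, and Gad2 (0.24) and Neurod6 (0.20) positive. The median lysate-mean difference of the 11 was -0.16, with 0 called by limma and 2 of 11 at an unadjusted p under 0.05 (beside 11.3%). The part of bulb tissue in the genotype values was not tested.

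**Figure D4:**
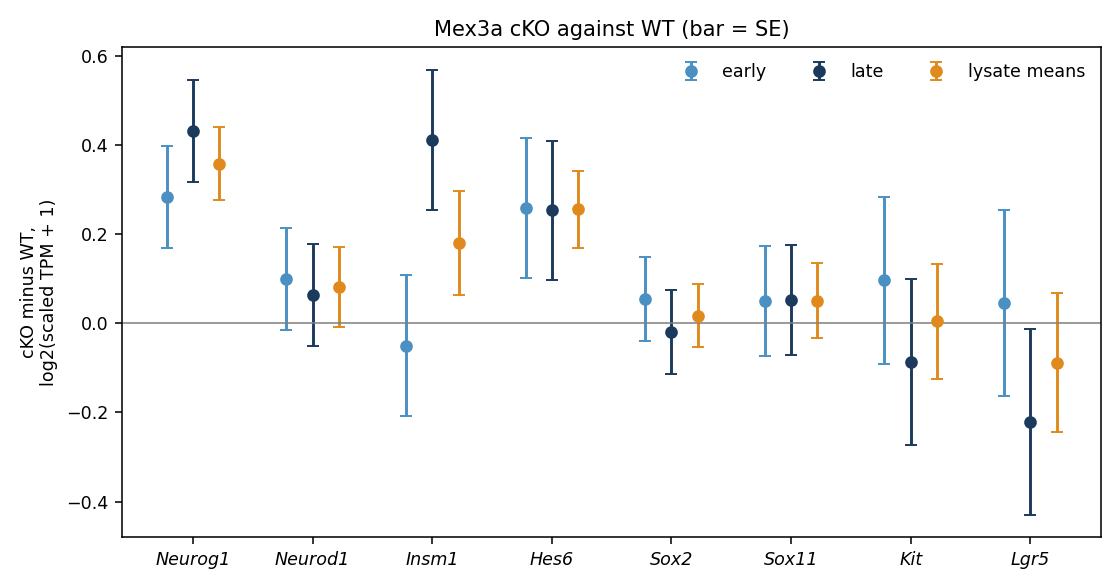
Difference of cKO from WT in log2(scaled TPM + 1) (vertical axis) for the 8 tested genes (horizontal axis) in early polysomes, late polysomes and lysate means, with standard errors as bars. Neurog1, Hes6, Neurod1 and Sox11 are above 0 in all 3 comparisons, Neurod1 and Sox11 by at most 0.10. Insm1 is above 0 in late polysomes and lysate means, and none of the 8 genes has an adjusted p under 0.05.

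Other genes with the same profile over the 8 libraries were found by the root mean square (RMS) difference of mean-centred log2 values, among about 12251 genes of at least 5 scaled TPM. Nearest to Neurog1 were Map3k13, a stress-pathway kinase (RMS 0.090), and Nudt19 (0.094). Nearest to Hes6 were the ribosomal protein gene Rps19 (0.054) and Glrx5, a mitochondrial glutaredoxin (0.059), which fell from early to late by 1.07 and 1.06. Nearest to Kit were Nfe2l2, a factor of the oxidative stress response (0.072), and Flt4, a vascular growth factor receptor (0.085). Neurod1 was followed by Pdxdc1 (0.052) and the collagen receptor gene Ddr2 (0.053), Insm1 by Zfp710 (0.070) and Pdzrn3 (0.076), and Sox2 by Fam134b (0.029) and Sap30bp (0.031). Sox11 had Pdss1 (0.045) and the inhibitory Smad gene Smad7 (0.050) nearest to it, and Lgr5 had Cops5 and Elp6 (both 0.085). Among the neurogenic genes themselves the closest pair was Sox2 and Sox11 (0.115), and Hes6 was the furthest from each of the others (0.561 to 0.949).

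The wider pathways were read in the same fits, where 68.9% of all tested genes were called late against early, 34.3% higher and 34.6% lower. Of 28 tested bHLH partners and lineage regulators, 12 were higher and 11 lower in late polysomes and 5 did not pass, with a median of 0.14. Kdm1a, a histone demethylase gene, rose by 0.88 (adjusted p = 3.44e-05), Ebf2 by 0.76 and Sox9 by 0.74. The bHLH antagonist gene Id2 fell by 1.29 (adjusted p = 1.88e-05), the bHLH gene Nhlh1 by 0.95 and the LIM homeobox gene Lhx2 by 0.80.

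Of 26 Notch pathway genes, 14 were higher, 3 lower and 9 did not pass (beside 34.3% higher and 34.6% lower over all genes), with a median of 0.37. The receptors Notch3 (1.14) and Notch1 (0.80) and the ligand Jag2 (0.70) rose the most, and the 3 that fell were the gamma-secretase subunit gene Psenen (-1.36) and the fringe genes Mfng (-0.67) and Rfng (-0.46). Of 17 tested Wnt and Lgr pathway genes, 8 were higher, 4 lower and 5 did not pass, with a median of 0.16, so 12 were called beside 68.9% of all genes. Ctnnb1, which encodes beta-catenin, rose by 1.06, and the receptor genes Lgr6 and Lrp5 by 0.73 and 0.72. Among those that fell were the Lgr ligand gene Rspo1 (-0.73), Tcf7 (-0.65) and the ubiquitin ligase gene Znrf3 (-0.53).

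Of 16 genes of Kit signalling, 5 were higher, 6 lower and 5 did not pass, with a median of 0.11, a split near that of all genes (34.3% higher, 34.6% lower). The ligand gene Kitl was at 38.0 and 39.8 TPM (WT early), 25.5 and 22.6 (WT late), 41.4 and 45.1 (cKO early) and 24.1 and 19.8 (cKO late). It fell by 0.93 (SE 0.096, adjusted p = 6.24e-05), while the receptor Kit rose. The phosphatase gene Ptpn6 rose by 1.20, Cbl by 0.40 and Lyn by 0.24, and the inhibitor gene Spred1 fell by 0.88 and the adaptor gene Grb2 by 0.50. Of 18 cell cycle genes 14 were higher, 2 lower and 2 did not pass (median 0.50, beside 34.3% higher and 34.6% lower over all genes), led by the replication licensing genes Mcm5 (1.42) and Mcm6 (1.24) and the inhibitor gene Cdkn1c (1.14), and the 2 that fell were Birc5 (-1.16) and Ccna2 (-0.54). All values in this and the preceding 2 paragraphs are log2 late minus early, and the highest adjusted p among the genes said to rise or fall is 0.0194 (Lyn). They take no account of coding length, along which the class medians ran from -1.12 to 0.50. The part of coding length in the lists and in the contrast of Kit and Kitl was not tested.

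Between genotypes 0 genes of any of the 5 lists were called on lysate means by limma. At an unadjusted p under 0.05, which 11.3% of all tested genes reached, there were 3 of the 28 bHLH partners and lineage regulators, 6 of the 26 Notch genes, 3 of the 17 Wnt and Lgr genes, 2 of the 16 Kit signalling genes and 0 of the 18 cell cycle genes. The medians of the lists were 0.04, 0.10, 0.20, 0.03 and 0.03 in the same order.

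**Figure D5:**
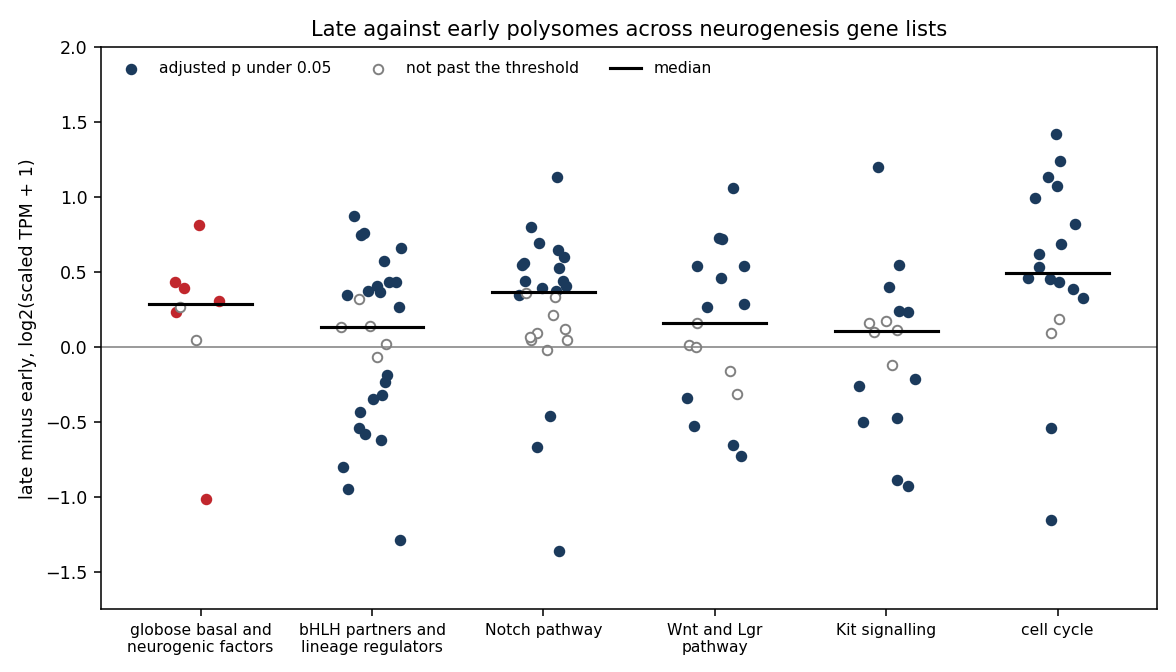
Late minus early change in log2(scaled TPM + 1), mean of genotypes (vertical axis), of the tested genes of each list (horizontal axis), filled where the adjusted p was under 0.05 and open where it was not, with a bar at the median. The neurogenic genes hold 5 rises and 1 fall, the lineage regulators spread to both sides of 0, and most cell cycle genes lie above it.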

How the data were processed

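The authors deposited 1 table of TPM values for 21765 gene symbols in 8 libraries. Per the submitters' processing notes, FastQC, cutadapt, STAR, DESeq2 and the build mm10, the assembly GRCm38, were used. The counting rule and annotation are not given in the sources used here, and the Cre line and 1 gene of the naming rule are not reported here. Per the labels' protocols, libraries were made with a stranded low-input total RNA kit. Groups came from sample titles. No label says that lysates came from separate animals, so p-values measure the spread between these samples, which may be technical.

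TPM was scaled by median ratios and tested as log2(scaled TPM + 1) with limma 3.58.1 in R 4.3.3, which understates the change of low genes. The 4 groups were fitted together with a mean-variance trend, over the 16097 genes whose deposited TPM averaged 1 or more. Early and late libraries of a lysate share its name in the labels, so late against early was also fitted with the lysate as a block. Their deviations correlated at 0.0863 in WT and 0.0502 in cKO. Same-numbered WT and cKO libraries share a replicate number and carry consecutive numbers in their library names. The labels do not say what that order stands for. Whole reads were inferred from TPM steps for 19783 genes (100% within 0.001, or 0.02 for abundant genes), and on simulated data 98.8% of 19373 genes came back exact. They served depths and a voom alternative.

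On simulated data with 200 genes changed 3-fold, limma recovered 200 (genotype, early), 199 (genotype, late), 200 (genotype, lysate means) and 200 (late against early). False calls numbered 11, 18, 6 and 12 among 14923, 14939, 14919 and 14904 genes, in the same order. The largest genotype difference of a tested neurogenic gene was 1.35-fold (Neurog1, late polysomes). Recovery of changes smaller than 3-fold was not tested, so these counts do not show whether such differences would be called. Other alternatives were pseudocounts of 0.1 and 0.5, no filter, a TPM filter of 5, no scaling, quantile normalization, no trend, only the libraries compared, and each library left out. The genes and lists were chosen with earlier results of these data known. Besides the 9 genes and Mex3a, the text names the 2 nearest profiles per gene and up to 3 called genes per direction and list with at least 5 scaled TPM. Kitl and the highest gene of some marker lists are also named. Others were chosen after their values were seen (Cerkl, Gm26755, Gata2, Hdc, Mrgprb2, Dcx, Crmp1, Stmn4, Slc17a7, Gad1, Gad2, Neurod6). Figures used matplotlib 3.10.9. Of the rows, 27 had symbols turned into dates and none is named.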

Additional observations from a re-analysis of the deposited data

How the results depend on the processing

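No called change of the 8 tested genes reversed under any alternative run. Of the 5 genes called late against early in WT, 2 to 3 were called when a WT library was left out and 5 when a cKO library was left out. Over both genotypes the 6 calls became 5 to 7 and in cKO the 5 became 4 to 5 with 1 library left out. A group reduced to 1 library is assumed to vary like the others. With the replicate block, 6 genes were called over both genotypes, 4 in WT and 5 in cKO, and 0 in each genotype comparison and the interaction. Sox2 in WT was the 1 call it changed. On lysate means the limma adjusted p was 0.0679 for Neurog1 and 0.0813 for Hes6. That fit of 4 lysates leaves little from which to estimate the spread. Same-numbered WT and cKO libraries, which carry consecutive library numbers, deviated together at a correlation of 0.332 in early and 0.143 in late polysomes. Early and late libraries of a lysate did so at 0.0863 in WT and 0.0502 in cKO. Insm1 over both genotypes was not called without the filter (adjusted p = 0.0571) or the trend (adjusted p = 0.0605), and Sox2 in WT not without the trend (adjusted p = 0.0688). Scaling moved the median late minus early change of all genes to 0.087 without scaling and 0.046 after quantile normalization. Sox2 in cKO was then called (0.32 and 0.27), and Sox11 in cKO only after quantile normalization (0.33, adjusted p = 0.0330). Over all genes the count called between genotypes on lysate means went from 1 to 85 with the number as a block and 52 with voom, from 7 to 0 in early polysomes when only the libraries compared were fitted, and from 2 to between 0 and 13 in late polysomes with a library left out. The fewest reads lie behind Neurod2 and Lgr5.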
